A study of Mus musculus with 6 samples.

Results

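The genes for dopamine receptors and alpha-adrenergic receptors were compared between VMHpvlm and VMHpvll, neighbouring parts of the ventromedial hypothalamus (VMH), in female mice. The members were 10 genes chosen by symbol, namely the dopamine receptors Drd1 to Drd5 and the alpha-adrenergic receptors Adra1a, Adra1b, Adra1d, Adra2a and Adra2c, out of 47480 genes in the table. VMHpvlm and VMHpvll had 3 libraries each, and both came from females of 1 background, VgluT2-cre/Ai6, in which Cre from the glutamate transporter gene VgluT2 (Slc17a6) switches on a green fluorescent protein. The areas were cut by laser from frozen coronal sections, and no source used here gives the age of the mice, the borders drawn or any pooling of animals. The titles carry F19, F20 or KH_161103 (with a letter C or D after it), once per region, which made 3 pairs. Libraries held 7157831 to 11293159 reads in genes.

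Dopamine and noradrenaline act on G protein-coupled receptors whose subfamilies send different signals. The D1-like receptors (Drd1 and Drd5) couple to Gs and raise cyclic AMP, and the D2-like receptors (Drd2, Drd3 and Drd4) couple to Gi/o and lower it. Alpha-1 receptors (Adra1a, Adra1b and Adra1d) couple to Gq and phospholipase C, and alpha-2 receptors (Adra2a and Adra2c) couple to Gi/o. Drd2 and Adra2a also serve as autoreceptors on the neurons that release dopamine and noradrenaline. In rats, noradrenaline acting on alpha-1 receptors of the hypothalamus has been studied in oestrogen-dependent female sexual behaviour.

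The sequences at the gene starts are shown for the D1-like genes, which were higher in VMHpvlm, and for Drd2 and Adra2a, which were higher in VMHpvll. Each is the RefSeq window on GRCm38.p6 (the same build as mm10) from 250 bases before to 50 bases after the start, read 5′ to 3′ on the strand of the gene. Capitals mark matches on either strand to GGGCGG (the GC box), TATAAA (the TATA box), CCAAT (the CAAT box), CACGTG (an E-box), TGACG (the core of a cAMP response element), AGGTCA (a nuclear receptor motif) or CAAGGTCA (a site for NR5A1).
Drd1 (chr13:54055609-54055908, minus strand): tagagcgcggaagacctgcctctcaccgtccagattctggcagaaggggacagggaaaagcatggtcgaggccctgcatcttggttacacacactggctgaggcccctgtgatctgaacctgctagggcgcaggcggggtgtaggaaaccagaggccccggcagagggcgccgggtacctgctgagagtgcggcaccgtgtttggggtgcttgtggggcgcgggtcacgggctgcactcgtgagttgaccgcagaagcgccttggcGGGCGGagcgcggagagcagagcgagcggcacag
Drd5 (chr5:38319259-38319558, plus strand): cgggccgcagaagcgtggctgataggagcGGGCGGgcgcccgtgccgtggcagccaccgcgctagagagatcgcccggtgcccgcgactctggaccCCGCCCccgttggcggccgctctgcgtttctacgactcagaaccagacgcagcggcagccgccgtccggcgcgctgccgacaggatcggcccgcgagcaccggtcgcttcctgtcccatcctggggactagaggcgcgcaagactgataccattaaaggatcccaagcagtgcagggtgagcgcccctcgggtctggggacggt
Drd2 (chr9:49340153-49340452, plus strand): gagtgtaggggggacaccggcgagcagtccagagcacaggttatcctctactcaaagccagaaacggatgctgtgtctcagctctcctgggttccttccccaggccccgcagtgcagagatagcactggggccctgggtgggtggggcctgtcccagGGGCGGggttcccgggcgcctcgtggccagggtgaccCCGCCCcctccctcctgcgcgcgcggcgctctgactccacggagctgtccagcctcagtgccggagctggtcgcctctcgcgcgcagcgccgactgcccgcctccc
Adra2a (chr19:54045009-54045308, plus strand): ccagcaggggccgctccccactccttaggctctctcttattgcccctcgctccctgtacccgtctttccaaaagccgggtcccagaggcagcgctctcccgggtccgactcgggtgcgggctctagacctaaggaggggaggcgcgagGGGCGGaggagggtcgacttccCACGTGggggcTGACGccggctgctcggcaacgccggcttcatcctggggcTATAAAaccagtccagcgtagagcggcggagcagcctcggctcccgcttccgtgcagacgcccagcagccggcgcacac

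These 4 windows were rich in G and C, with 65.7% in Drd1, 70.3% in Drd5, 70.3% in Drd2 and 68.7% in Adra2a, against a median of 52.7% over 32851 promoter windows. Each held at least 1 GC box, which 35.7% of all windows hold, with 2 in Drd5 and 2 in Drd2. Adra2a also held a TATA box starting 29 bases before the start, an E-box and a TGACG core, which 13.6%, 7.15% and 20.8% of all windows hold. No match to AGGTCA, to CAAGGTCA (which contains it) or to TGACGTCA (the full cAMP response element, which contains TGACG) lay in these 4 windows. Of all windows, 16.3%, 1.56% and 1.79% hold these motifs, and 37.4% hold CCAAT. Of the other members with a window, Adra2c alone held AGGTCA, once, 51 bases before its start. RefSeq windows were found for 8 of the 10 members, all but Adra1a and Adra1d. These matches describe letters and do not show binding.

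Members of both receptor families differed between the regions, in both directions. Drd1, Drd5, Adra1a and Adra2c were higher in VMHpvlm, and Drd2 and Adra2a were higher in VMHpvll. Differences ran from 1.37-fold (Adra2c) to 5.14-fold (Drd5) toward VMHpvlm, and were 1.68-fold (Adra2a) and 3.43-fold (Drd2) toward VMHpvll. Levels are normalised read counts, which are gene reads divided by 1 size factor per library, and each fold divides 1 region mean by the other. Differences were tested by limma on log2(value + 1) with the pair as a block, over 14522 genes whose mean reached 10, and called at a Benjamini-Hochberg adjusted p below 0.05. A fitted log2 difference is VMHpvlm minus VMHpvll and understates the change of low genes.

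Of the 10 members, 8 passed the filter, and 4 of these were called higher in VMHpvlm and 2 in VMHpvll, where 10.5% and 9.48% of all tested genes were called. Drd5 and Drd3 passed with means of 10.1 and 12.2, each only through the region where it was high, so the counts are given as a description. Region values did not overlap for 5 tested members higher in VMHpvlm and 2 higher in VMHpvll, against 14.5% and 13.5% of tested genes. The median absolute log2 difference of the tested members was 0.79, against 0.15 for all tested genes. The 2 sets were not matched by level, and low members had larger errors, such as an SE of 0.53 for Drd5 against 0.09 for Adra1a. In these bulk samples, fewer cells that express a gene and less RNA of it per cell cannot be told apart.

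**Figure D1:**
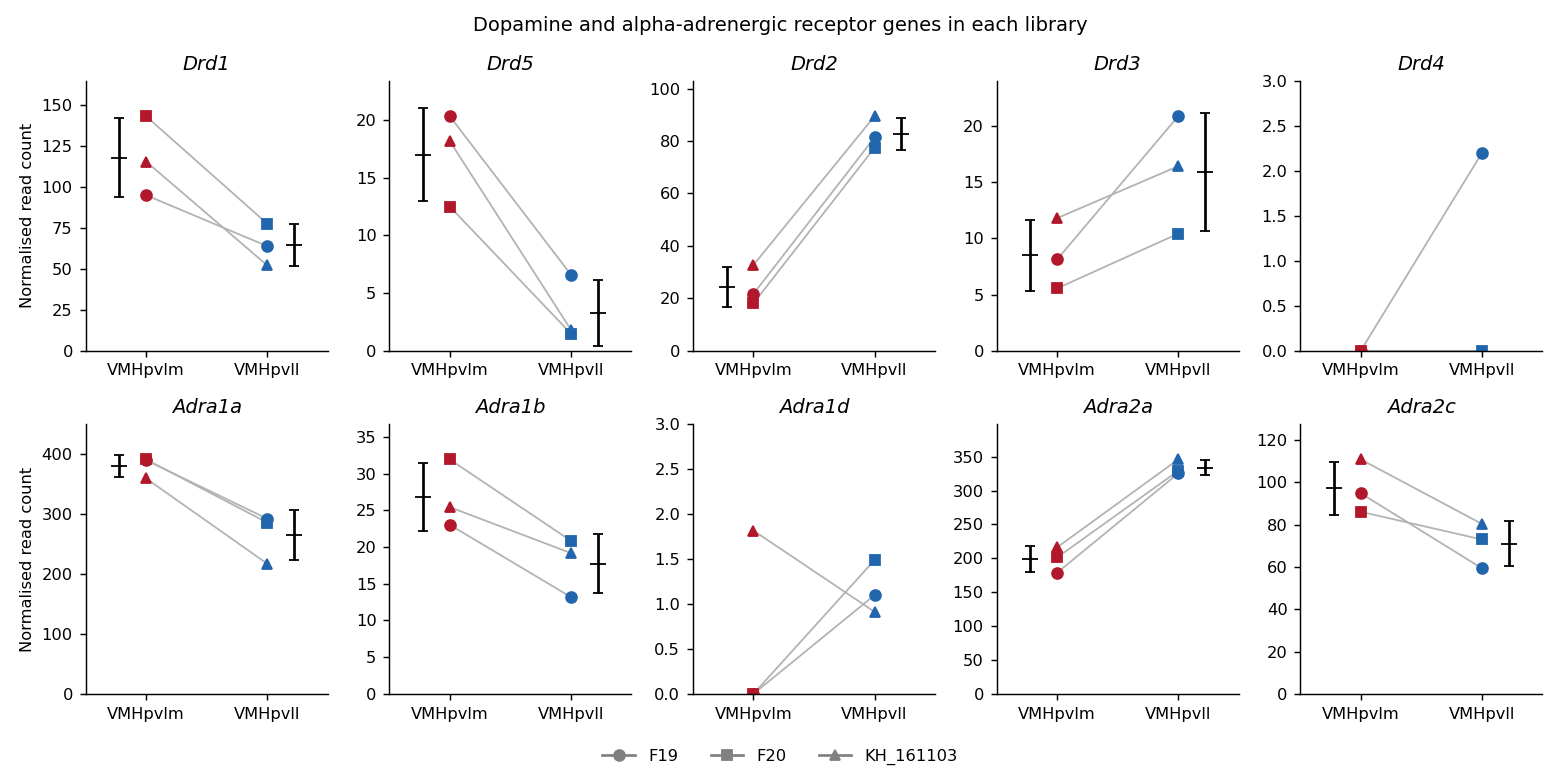
Normalised read counts of the 10 receptor genes in each library, VMHpvlm on the left and VMHpvll on the right of each panel, with lines joining libraries of the same name and black bars giving mean ± SD of 3 libraries (not drawn for Drd4 and Adra1d). The axes start at 0 and differ between panels, and every line falls toward VMHpvll for Drd1, Drd5, Adra1a, Adra1b and Adra2c and rises for Drd2, Drd3 and Adra2a.

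Among the D1-like receptors, Drd1, the main receptor that stimulates adenylyl cyclase, had 94.8, 143 and 115 normalised counts in VMHpvlm (F19, F20 and KH_161103), against 63.8, 77.4 and 52.0 in VMHpvll. All 3 VMHpvlm libraries lay above all 3 VMHpvll libraries, and F20 was the highest library of each region. The mean was 118 ± 24.2 in VMHpvlm and 64.4 ± 12.7 in VMHpvll (SD, n = 3 each), or 1.83-fold higher. The fitted log2 difference was 0.86 ± 0.17 SE (95% interval 0.52 to 1.19, limma adjusted p = 9.13e-05). With a variance prior that took no trend and no robust step, the limma adjusted p of Drd1 was 0.0711.

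Drd5, the other D1-like receptor, had 20.3, 12.5 and 18.2 normalised counts in VMHpvlm, against 6.60, 1.49 and 1.83 in VMHpvll. These values rest on few reads, 44 in all over VMHpvlm and 9 over VMHpvll, and the F20 library of VMHpvll held 1 read. Every VMHpvlm library was above every VMHpvll library. The mean was 16.99 ± 4.04 in VMHpvlm and 3.30 ± 2.86 in VMHpvll, and the fitted log2 difference was 2.23 ± 0.53 SE (95% interval 1.17 to 3.29, limma adjusted p = 0.00131). In size this difference was 10th of all tested genes toward VMHpvlm. Drd5 passed the filter only through VMHpvlm, so its rank and test are given as a description. With a pseudocount of 5 the difference was 1.44, and the adjusted p was 0.0533 by DESeq2 and 0.0550 by limma with the prior without trend. Exons of Drd5 overlap the antisense gene Gm26560 over 48.6% of their length, and Gm26560 had 0 reads in all 6 libraries. The strand setting of the counting is not given, and whether the overlap lowered the counts of Drd5 was not tested.

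Among the D2-like receptors, Drd2 had 21.7, 18.0 and 32.7 normalised counts in VMHpvlm, against 81.3, 77.4 and 89.5 in VMHpvll. The highest VMHpvlm library was below every VMHpvll library, and KH_161103 was the highest of each region. Means were 24.1 ± 7.63 in VMHpvlm and 82.8 ± 6.13 in VMHpvll, 3.43-fold higher in VMHpvll. The fitted log2 difference was -1.78 ± 0.23 SE (95% interval -2.23 to -1.32, limma adjusted p = 3.31e-08), the 67th toward VMHpvll among the tested genes. The call was kept under every alternative tried, with differences between -1.95 and -1.62. The table sums reads per gene, so the long and short splice forms of Drd2 were not separated.

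Drd3, a D2-like receptor best known from limbic areas, had 8.13, 5.55 and 11.8 normalised counts in VMHpvlm, against 20.9, 10.4 and 16.4 in VMHpvll. The regions overlapped, since the KH_161103 library of VMHpvlm was above the F20 library of VMHpvll, while VMHpvll had the higher value in 3 of 3 pairs. The fitted log2 difference was -0.84 ± 0.43 SE (95% interval -1.70 to 0.03) and was not called (limma adjusted p = 0.185). Its point estimate had the same sign as that of Drd2, on 23 reads in VMHpvlm and 44 in VMHpvll. Drd4 had 0 reads in VMHpvlm and 2 in VMHpvll, both in the F19 library. A count of 0 allows up to 3 reads in a library, or 2.72 to 4.16 normalised counts in VMHpvlm, a limit that covers counting error only.

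Among the alpha-1 receptors, Adra1a had 390, 391 and 360 normalised counts in VMHpvlm, against 292, 286 and 217 in VMHpvll. All VMHpvlm libraries lay above all VMHpvll libraries, and KH_161103 was the lowest of each region. Means were 380 ± 18.0 in VMHpvlm and 265 ± 41.6 in VMHpvll, 1.43-fold higher with a fitted log2 difference of 0.53 ± 0.09 SE (95% interval 0.35 to 0.71, limma adjusted p = 1.46e-05). With the prior without trend, its limma adjusted p was 0.0836.

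Adra1b had 23.0, 31.9 and 25.4 normalised counts in VMHpvlm, against 13.2, 20.9 and 19.2 in VMHpvll. The values did not overlap, but the gene was not called (fitted log2 difference 0.58 ± 0.31 SE, 95% interval -0.05 to 1.21, limma adjusted p = 0.217). The interval of Adra1b includes both 0 and the difference of Adra1a. Adra1d was near the detection limit, with 2 reads in VMHpvlm, all in KH_161103, and 3 reads in VMHpvll, 1 in each library. No fold is given for Drd4 or Adra1d.

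Among the alpha-2 receptors, Adra2a had 179, 201 and 216 normalised counts in VMHpvlm, against 325, 329 and 346 in VMHpvll. Region values were far apart compared with their spread, at 199 ± 18.8 in VMHpvlm and 334 ± 11.0 in VMHpvll. The fitted log2 difference was -0.75 ± 0.10 SE (95% interval -0.95 to -0.55, limma adjusted p = 6.74e-08), and all alternatives kept the call, with differences between -0.78 and -0.69.

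Adra2c, the other alpha-2 member, went the opposite way, with 94.8, 86.1 and 111 normalised counts in VMHpvlm, against 59.4, 73.0 and 80.3 in VMHpvll. The lowest VMHpvlm library was only slightly above the highest VMHpvll library. Means were 97.2 ± 12.5 in VMHpvlm and 70.9 ± 10.6 in VMHpvll, and the fitted log2 difference was 0.45 ± 0.17 SE (95% interval 0.12 to 0.79, limma adjusted p = 0.0487). The call rested on the settings: the adjusted p was 0.0533 by edgeR's quasi-likelihood test, 0.119 without the pair block, 0.313 without the F19 pair and 0.218 without the KH_161103 pair. Over the 13 alternatives it ran from 0.0290 to 0.468, and 6 of them kept the call.

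**Figure D2:**
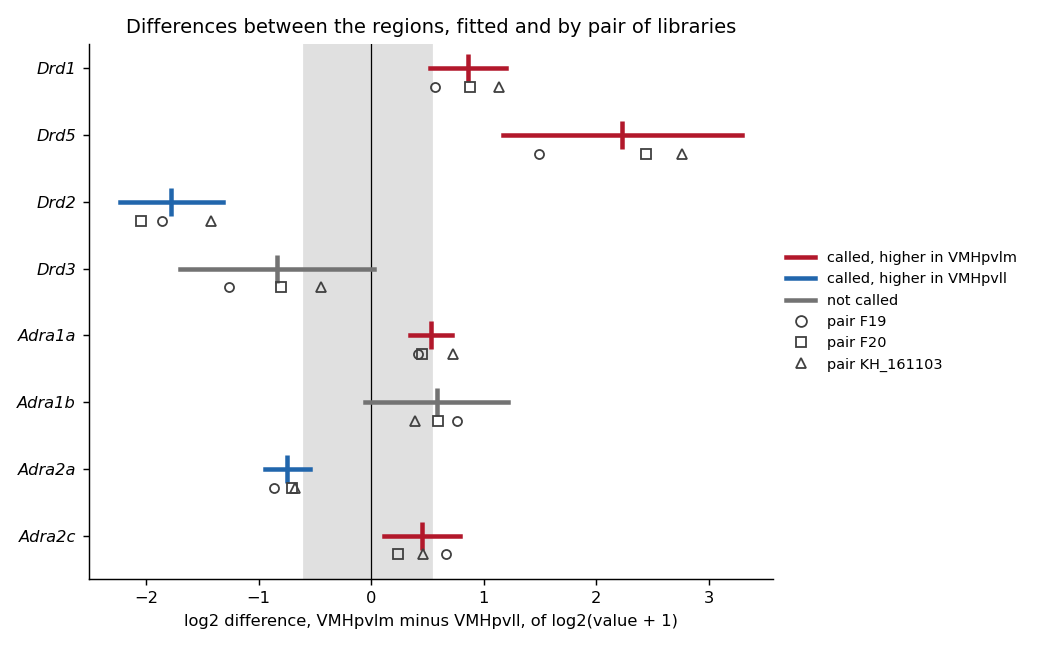
Differences between VMHpvlm and VMHpvll on the log2(value + 1) scale for the 8 tested receptor genes, as the fitted difference with its 95% interval (coloured bars with a tick) and as the value in each pair of libraries (open symbols). The grey band holds the middle of all tested genes, from the 5th percentile (-0.60) to the 95th (0.54), and the fitted differences lie outside it except for Adra1a and Adra2c.

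Within each of the 8 tested members the 3 pairs had the same sign. The spread between pairs was widest for Drd5, at 1.49, 2.44 and 2.76 in F19, F20 and KH_161103, and narrowest for Adra2a, at -0.86, -0.71 and -0.68. Drd1 differed by 0.57, 0.88 and 1.13 in the same pairs, and Drd2 by -1.86, -2.04 and -1.42. F19 had the smallest difference in both D1-like genes, while KH_161103 had the smallest in Drd2 and Drd3.

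Levels were compared between genes after division by the length of the merged exons in kilobases (GENCODE M21, mm10). In VMHpvlm the order was Adra1a (43.6 ± 2.06 counts per kb), Adra2a (41.1 ± 3.89), Drd1 (32.4 ± 6.66), Adra2c (28.2 ± 3.64), Drd2 (9.48 ± 2.996), Adra1b (7.92 ± 1.36), Drd5 (5.39 ± 1.28) and Drd3 (4.96 ± 1.84). Each of the first 4 had a range over libraries that overlapped that of its neighbour in the order, and a gap followed between Adra2c and Drd2. In VMHpvll the order was Adra2a (69.0 ± 2.27), Drd2 (32.5 ± 2.41), Adra1a (30.4 ± 4.77), Adra2c (20.6 ± 3.09), Drd1 (17.8 ± 3.50), Drd3 (9.30 ± 3.07), Adra1b (5.24 ± 1.19) and Drd5 (1.05 ± 0.906). There Adra2a stood above all others, Drd2 and Adra1a overlapped, and so did Adra2c and Drd1. Adra1d and Drd4 were the last in both regions, at 0.319 and 0 counts per kb in VMHpvlm and 0.615 and 0.217 in VMHpvll.

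**Figure D3:**
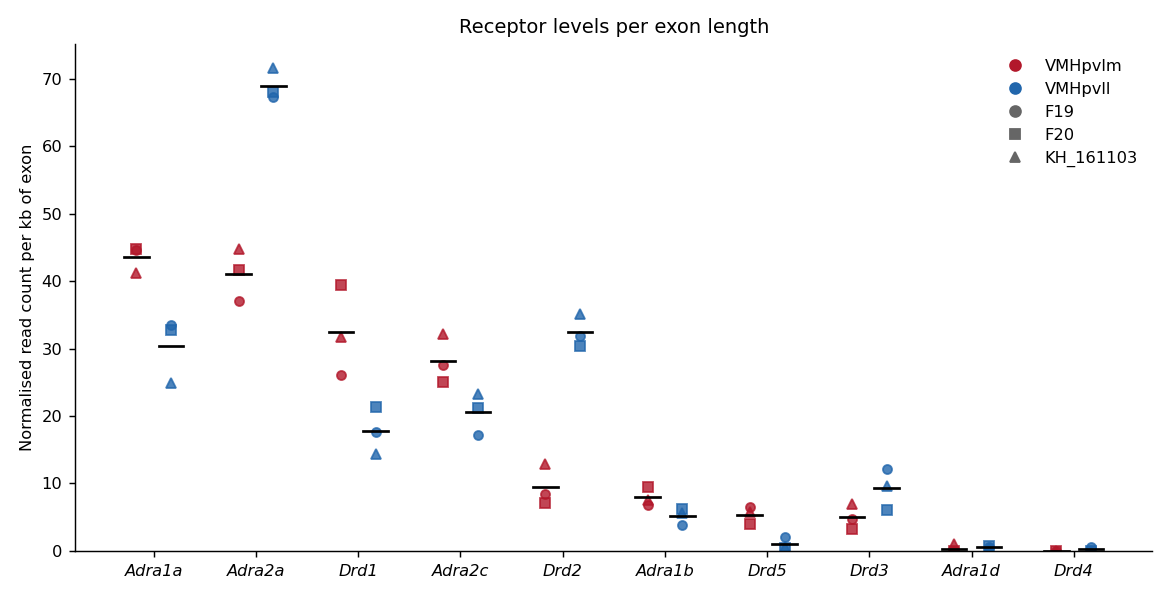
Normalised read counts per kb of merged exon for the 10 receptor genes, ordered by their mean in VMHpvlm, with 1 symbol per library, VMHpvlm (red) to the left of VMHpvll (blue) and black lines at the means. Adra1a leads in VMHpvlm at 43.6 counts per kb and Adra2a in VMHpvll at 69.0.

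The balance of the dopamine receptors turned over between the regions. Drd1 and Drd5 together made up 71.1%, 80.8% and 65.6% of the dopamine receptor counts per kb in VMHpvlm, against 30.5%, 37.4% and 25.02% in VMHpvll. The D1-like sum was 37.8 ± 5.40 counts per kb in VMHpvlm and 18.8 ± 3.53 in VMHpvll, and the D2-like sum was 14.4 ± 4.81 and 42.0 ± 4.77. Library scaling cancels in these shares, and every VMHpvlm library had a higher D1-like share than every VMHpvll library. The alpha-1 share of the 5 alpha members moved less, at 44.4%, 44.9% and 39.3% in VMHpvlm, against 31.0%, 30.8% and 24.6% in VMHpvll. Alpha-2 counts per kb exceeded alpha-1 counts per kb in all 6 libraries. That order and the alpha-1 share depend on the exon lengths used, 8.73 kb for Adra1a and 4.83 kb for Adra2a. Before division by length, Adra1a over Adra2a was 2.18, 1.94 and 1.66 in VMHpvlm (F19, F20 and KH_161103). In VMHpvll the same ratio was 0.90, 0.87 and 0.63. The D1-like and alpha-1 shares are descriptions of the chosen members and carry no test.

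**Figure D4:**
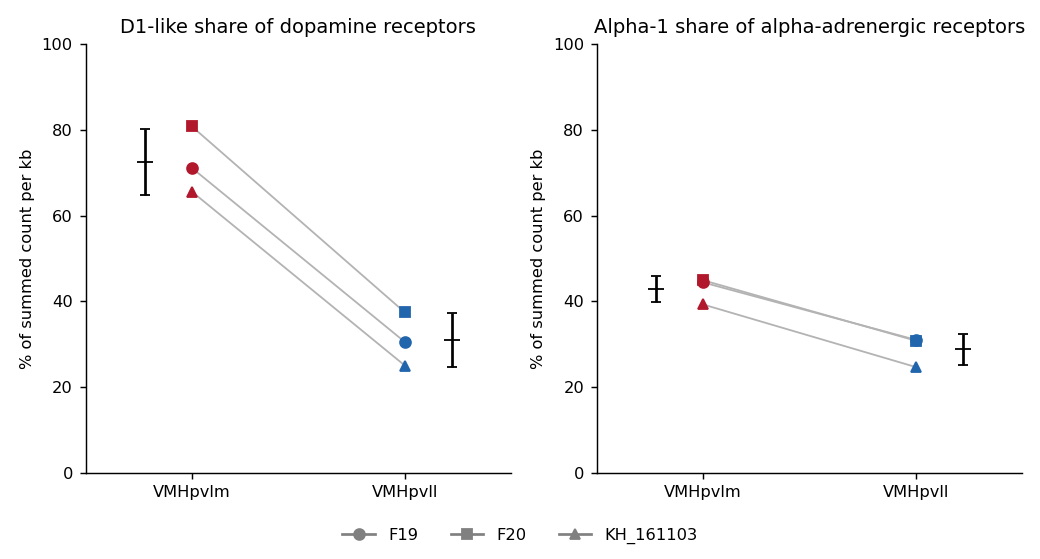
Share of D1-like genes (Drd1 and Drd5) in the summed counts per kb of the 5 dopamine receptors, and of alpha-1 genes in those of the 5 alpha-adrenergic members, per library, with lines joining libraries of the same name and black bars giving mean ± SD. The D1-like share averages 72.5% in VMHpvlm and 31.0% in VMHpvll, and the alpha-1 share 42.8% and 28.8%.

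On mm10 the members lie on different chromosomes for the most part, and all are annotated as protein-coding. Drd1 spans 54051183 to 54055705 on chromosome 13, Drd2 spans 49340627 to 49408177 on chromosome 9, and Drd3 spans 43754026 to 43822932 on chromosome 16. Drd4 lies on chromosome 7 from 141292006 to 141296464, and Drd5 on chromosome 5 from 38319367 to 38322518. Adra1a lies on chromosome 14 from 66635251 to 66771168, Adra1b on chromosome 11 from 43774606 to 43901210, and Adra1d on chromosome 2 from 131545850 to 131562283. Adra2a lies on chromosome 19 from 54044151 to 54048982, and Adra2c shares chromosome 5 with Drd5, from 35278319 to 35281763. In GENCODE M21, Drd5, Adra2a and Adra2c have 1 exon block each, while the annotation used for the deposited counts is not given. GENCODE and RefSeq place the starts of Drd1, Drd5, Drd2 and Adra2a at different positions, and the windows above use RefSeq, which for Drd1 also lists a second start, not shown, with 59.3% G and C in its window. Adra1d overlaps the antisense gene Gm14285 over 7.74% of its exon length, and the other 8 members, leaving out Drd5, overlap no annotated exon of another gene.

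Genes that make and clear the ligands were called in 1 direction only. Of 14 listed genes for catecholamine synthesis, transport and breakdown, 9 passed the filter. Of these 9, 0 were called higher in VMHpvlm and 3 in VMHpvll, where 10.5% and 9.48% of all tested genes were called. The median log2 difference of the 9 was 0.09, against 0.0025 for all tested genes. Th, the rate-limiting enzyme of catecholamine synthesis, was at 13.9 ± 8.58 in VMHpvlm and 42.7 ± 4.80 in VMHpvll (log2 difference -1.79, limma adjusted p = 4.50e-05). Slc6a3, the dopamine transporter, was at 5.77 ± 2.25 in VMHpvlm and 28.9 ± 11.2 in VMHpvll (-2.12, limma adjusted p = 0.000119), and passed the filter only through VMHpvll, so its test is given as a description. Maoa, which breaks down monoamines, was at 481 ± 22.1 in VMHpvlm and 600.0 ± 31.2 in VMHpvll (-0.32, limma adjusted p = 0.000915), and was not called by DESeq2 (adjusted p = 0.0561) or without the KH_161103 pair (limma adjusted p = 0.0992). Dbh, which turns dopamine into noradrenaline, did not pass the filter, at 2.71, 0 and 0.908 normalised counts in VMHpvlm and 4.40, 0 and 0.913 in VMHpvll. Of the 4 adrenergic receptors outside the members, only Adrb1 passed the filter, and it was not called (54.3 ± 18.0 in VMHpvlm and 42.1 ± 2.59 in VMHpvll, limma adjusted p = 0.372).

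G protein alpha subunits moved both ways. All 10 listed subunits were tested, 3 were called higher in each region, and 4 were not called. Of all tested genes, 10.5% were called higher in VMHpvlm and 9.48% in VMHpvll. Gnas, the Gs subunit, had a log2 difference of 0.17 (limma adjusted p = 4.49e-06), and Gnal, the related Golf subunit through which Drd1 signals in striatum, had -0.43. Gnai2, a Gi subunit, had -0.27, and Gna14, of the Gq family, had -2.003, at 8.02 ± 4.91 in VMHpvlm and 32.5 ± 7.21 in VMHpvll. Gna14 passed the filter only through VMHpvll, so its call, 1 of those 3, is given as a description. Gnas and Gnal thus went in opposite directions. So did members of the Gi family. Gnai1 (log2 difference 0.15, limma adjusted p = 0.0433) and Gnaz (0.20, limma adjusted p = 0.00706) were called higher in VMHpvlm, opposite to Gnai2. Both were named after their values were seen, and DESeq2 called only 1 subunit, Gnas, higher in VMHpvlm.

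Among 16 effectors, 5 were called higher in VMHpvlm and 2 in VMHpvll, against 10.5% and 9.48% of all tested genes. Their median log2 difference was 0.17. Plcb1 and Plcb4, phospholipases downstream of Gq, had log2 differences of 0.78 and 0.73, at 1615 ± 72.0 and 1490 ± 85.7 in VMHpvlm against 943 ± 58.7 and 895 ± 58.3 in VMHpvll. Kcnj3 and Kcnj9, subunits of the potassium channels opened by Gi/o-coupled receptors, had 0.77 and 0.42. The 2 effectors called higher in VMHpvll belong to the same groups, Plcb3 with a log2 difference of -0.45 and Kcnj6 with -0.36, and were named after their values were seen. Ppp1r1b, the phosphoprotein DARPP-32 of striatal dopamine signalling, was not called, at 64.5 ± 7.30 in VMHpvlm and 57.5 ± 9.18 in VMHpvll (limma adjusted p = 0.614). Of 20 genes for desensitisation and receptor partners, 2 were called, both higher in VMHpvll, a share near the 9.48% of all tested genes. These were Rgs4 and Rgs2, which speed the switching off of G proteins, with log2 differences of -0.97 and -0.67. With the prior without trend, the calls of Th, Slc6a3, Maoa, Gnal, Gnai2, Gnas, Gna14 and Kcnj9 were lost, with limma adjusted p between 0.0843 and 0.231.

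**Figure D5:**
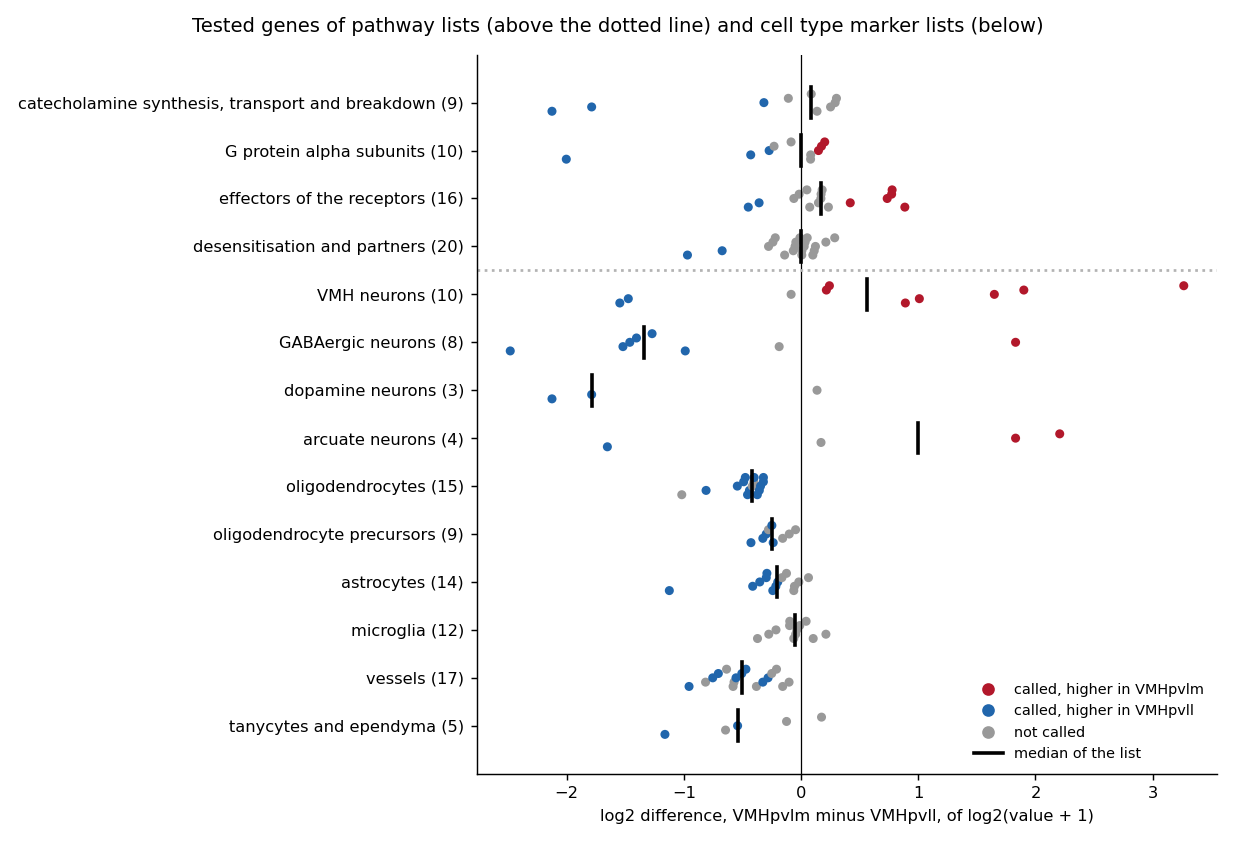
Difference on the log2(value + 1) scale, VMHpvlm minus VMHpvll, for each tested gene of 4 pathway lists and 10 cell type marker lists, with the number tested in brackets and a black line at each median. Red and blue points were called higher in VMHpvlm and VMHpvll, and the GABAergic list (median -1.34) and the glial and vascular lists sit left of 0.

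Markers of several cell types also differed between the regions. Slc17a6 was abundant in both regions, with 4665 ± 139 normalised counts in VMHpvlm against 4946 ± 17.1 in VMHpvll, and was not called (limma adjusted p = 0.0859). Of 10 VMH neuron markers, 7 were called higher in VMHpvlm and 2, Esr1 and Pgr, in VMHpvll, against 10.5% and 9.48% of all tested genes. The sum of the 10 ran from 12734 to 12821 in VMHpvlm and from 13533 to 14018 in VMHpvll, opposite to those 7. It follows abundant genes, among them Slc17a6 and Pgr (1229 ± 98.7 in VMHpvlm and 3410 ± 197 in VMHpvll). Nr5a1, the defining transcription factor of the VMH, averaged 308 ± 19.5 in VMHpvlm and 31.5 ± 6.73 in VMHpvll. Of 8 tested GABAergic markers, 1 (Npy) was called higher in VMHpvlm and 6 in VMHpvll, against 10.5% and 9.48% of all tested genes. Npy passed the filter only through VMHpvlm, and Dlx2 and Dlx6 only through VMHpvll, so these calls are given as a description. The summed level of all 12 ran from 1439 to 1719 in VMHpvlm and from 2661 to 3035 in VMHpvll. Drd2 and Adra2a differed in the same direction, and the 4 members called higher in VMHpvlm in the other. The summed level of the 8 dopamine neuron markers ran from 161 to 215 in VMHpvlm and from 204 to 257 in VMHpvll. Most of it was Ddc, at 165 ± 18.3 in VMHpvlm and 152 ± 33.7 in VMHpvll and not called, while Th and Slc6a3 were called higher in VMHpvll. Foxa1 was at 0 in all libraries, and the vesicular transporter Slc18a2 at 4.55 ± 2.05 in VMHpvlm and 4.34 ± 3.91 in VMHpvll. Of the 4 tested arcuate markers, 2 were called higher in VMHpvlm (Pomc, and again Npy) and 1 in VMHpvll. The list of 7 summed to 364 to 622 in VMHpvlm and 270.2 to 357 in VMHpvll, with Kiss1 at 0.

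Among glial and vascular markers, all calls were toward VMHpvll, where limma called 9.48% of all tested genes. The marker calls numbered 12 of 15 for oligodendrocytes, 5 of 9 for their precursors, 8 of 14 for astrocytes, 8 of 17 for vessels and 2 of 5 for tanycytes and ependyma. DESeq2 called 9, 0, 4, 2 and 1 of these lists in the same order. Summed levels ran from 12925 to 14809 in VMHpvlm and from 17460 to 18787 in VMHpvll for oligodendrocytes, and from 34658 to 37469 in VMHpvlm and from 40879 to 46121 in VMHpvll for astrocytes. Precursors summed to 3328 to 3781 in VMHpvlm and 3973 to 4124 in VMHpvll, and tanycytes and ependyma to 346 to 476 and 578 to 776, with Tmem212 at 0. Those of vessels ran from 2440 to 2904 in VMHpvlm and from 3421 to 4156 in VMHpvll. For the 12 microglia markers limma made 0 calls, with 1 at an unadjusted p below 0.05 and 0 calls by edgeR and by DESeq2, and their sum ran from 1457 to 1544 in VMHpvlm and from 1509 to 1702 in VMHpvll. The part of these cell types in the receptor differences was not tested.

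The tested genes most like each called member over the 6 libraries were found by the root mean square distance between centred log2(value + 1) profiles, among 11127 genes with a mean of at least 50. Nearest to Drd1 was the serotonin receptor gene Htr1b (distance 0.084), followed by Rnf128 (0.12) and Stac2 (0.12). Nearest to Drd2 were 1700024P16Rik (0.096), Gm4951 (0.18) and Parm1 (0.20). For Adra2a they were Rprm (0.062), S100a13 (0.063) and the cerebellin gene Cbln1 (0.067), and for Adra1a they were Nin (0.059), Mchr1 (0.060), a receptor for melanin-concentrating hormone, and Armc2 (0.060). Adra2c was nearest to Lingo1 (0.052), Sema3d (0.057) and Pdk3 (0.069). The nearest genes to Drd5 lay farther off, at Sox14 (0.40), Col24a1 (0.41) and Crhbp (0.43). Drd5 had a mean of only 10.1, below the 50 asked of the candidates, and the part of counting noise in its distances was not tested. The likeness is a description of 6 libraries and carries no test.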

How the data were processed

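RNA was sequenced from laser-captured VMHpvlm and VMHpvll, with a stranded total RNA kit per the labels' protocols. HISAT2, featureCounts and mm10 appear in the submitters' processing notes, where no versions stand. No source used here gives the annotation, the strand setting or the scaling tool. The deposited values were a normalised signal, that is gene counts scaled by 1 factor per library: divided by what 1 read is worth in its library, 100% of the values above 0 came out whole, within 0.05 reads. Recovered reads ranged from 7157831 to 11293159 per library, which limits low genes such as Drd4, Adra1d and Drd5. Of these reads, 1 gene, Gm42418, held from 11.6% (F20 of VMHpvlm) to 17.9% (F19 of VMHpvll).

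Values were tested with limma 3.58.1 in R 4.3.3 (trend and robust, 2 residual and a median of 39.9 prior degrees of freedom), for genes with a mean of at least 10, with the pair as a block, two-sided, with Benjamini-Hochberg adjustment over all 14522 tested genes. Whether libraries of 1 name came from 1 animal is not stated, and the spread among these libraries may be technical. With 2 residual against a median of 39.9 prior degrees of freedom, limma p-values rest mostly on a variance shared over genes of like level. The spread of each gene's own libraries counts for less. The pairing rests on the names and on deviations from the region means, which correlated over genes at 0.24 to 0.36 for the same name and at -0.25 to 0.01 for different names. Chi-square per degree of freedom between libraries of 1 region was 5.49 to 9.89, above sampling noise. Members and lists were chosen with earlier results of these data known. Named were all members, up to 4 called genes per pathway list by smallest p, Th, Dbh, Slc6a3 and Ppp1r1b, and the 3 nearest genes per called member. Adrb1 and single markers were named after their values were seen, and 1 marker list is not reported here. The limma and edgeR steps were tested on simulated data. Alternatives were no block, pseudocounts of 0.5 and 5, other filters, scalings and a plain variance prior, counting tests on the recovered reads (edgeR 4.0.16, DESeq2 1.42.0), and leaving out each pair. With the block, leaving out 1 library removes its pair from the difference.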

Additional observations from a re-analysis of the deposited data

How the results depend on the processing

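Each tested member kept its direction under all alternatives in which it could be fitted (Drd3, Drd5 and Adra1b lay under the filter at a mean of 50). Drd2 and Adra2a were the 2 members called higher in VMHpvll in each. The 4 members called higher in VMHpvlm became 2 with DESeq2 and 0 with the variance prior without trend or robust, and 3 without the pair block (no replicate block), which ended the call of Adra2c alone. Genes called higher in VMHpvlm and in VMHpvll numbered 1528 and 1377, against 937 and 863 without the block, 648 and 582 with DESeq2, and 189 and 233 with the prior without trend or robust. Leaving out each pair gave 935 to 1511 and 838 to 1361 genes, with the lowest counts, 935 and 838, without KH_161103. Scaling to the same total gave a median difference of all genes of 0.026, against 0.0025. With edgeR 1437 and 1436 genes were called. Depth limits Drd3, Drd5 and Adra1b most among the tested members, and the causes of the changes were not tested.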
